A study of Mus musculus with 101 samples.

Results

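Of the 85 mouse embryonic stem cell lines with methylation values, 16 are named in the labels by a second title that ends in WA, and these 16 lines were compared with the other 69. A line's place in either group follows from its name alone, with no measured value used: B1_B33, B1_B5, B1_C16, B1_C17, B1_D4, B2_11, B2_5, B2_8, B2_9, B3A_21, B3A_36, B3A_44, B3A_7, B3B_26, B3B_31 and B3B_8. The meaning of WA is not stated in the labels or tables, nor is whether the column of such a line holds its plain library, its WA library or both. Each comparison was made among lines of the same name prefix and then combined, with 5 WA and 23 other lines for B1, 4 and 14 for B2, 4 and 16 for B3A, and 3 and 16 for prefix B3B. Every line in both groups derives from Diversity Outbred mice, an outbred stock bred from several inbred founder strains, and was grown in Serum/LIF +2i. Methylation was read by EM-seq, in which enzymes convert unmethylated cytosines before sequencing, at targets captured with a Twist panel. Each column was counted as 1 line. Among the other 69, 44 names match a title, 24 carry a final N that the title lacks and 1 (B1dA16) matches none, and B1dB37 and B1dB37N may be the same line. No label ties columns to separate cultures, so p-values measure only the spread between columns, which may be technical.

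CpG methylation is copied at cell division by the maintenance enzyme Dnmt1 and laid down by de novo enzymes, while TET oxidation and loss of maintenance remove it. In naive mouse embryonic stem cells, 2i (inhibitors of MEK and GSK3) lowers methylation across the genome, and long culture can erase the parental marks at imprinted loci. Promoters of germline genes and of 2-cell stage genes are among the sequences that methylation keeps silent in most cell types.

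The panel regions had a median length of 500 bases, and 787 of 868 had a value in at least 80% of lines and were kept. Of these, 710 overlapped a gene and 219 held the promoter window of the gene they are named for. The sequences just before the starts of 5 named genes are printed as examples of promoters that differed between the groups: CpG-dense ones near 0 methylation (Samd4, Cenpb), CpG-dense ones at low to moderate levels (Pramel1, Mael) and a sparser one at a higher level (Prss42). Each holds the 250 bases before the gene start, from RefSeq on GRCm38.p6, reads 5′ to 3′ on the strand of the gene, and has its CpGs (the letters CG, which read the same on both strands) in capitals.
Samd4: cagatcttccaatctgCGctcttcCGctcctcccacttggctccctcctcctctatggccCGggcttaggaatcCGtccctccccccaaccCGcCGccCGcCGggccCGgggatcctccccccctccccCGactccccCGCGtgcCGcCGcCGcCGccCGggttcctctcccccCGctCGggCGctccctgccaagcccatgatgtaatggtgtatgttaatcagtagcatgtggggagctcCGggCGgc
Cenpb: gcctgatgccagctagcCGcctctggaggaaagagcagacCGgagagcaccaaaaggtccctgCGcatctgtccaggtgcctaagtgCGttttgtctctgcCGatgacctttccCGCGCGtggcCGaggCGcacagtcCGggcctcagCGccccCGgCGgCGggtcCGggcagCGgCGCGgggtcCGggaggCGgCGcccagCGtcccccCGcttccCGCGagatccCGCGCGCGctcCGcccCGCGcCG
Pramel1: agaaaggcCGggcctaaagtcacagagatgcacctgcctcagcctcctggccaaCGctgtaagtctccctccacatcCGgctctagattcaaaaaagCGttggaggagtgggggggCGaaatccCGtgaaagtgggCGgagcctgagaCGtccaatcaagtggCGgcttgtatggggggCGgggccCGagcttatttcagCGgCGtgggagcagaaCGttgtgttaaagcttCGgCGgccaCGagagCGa
Mael: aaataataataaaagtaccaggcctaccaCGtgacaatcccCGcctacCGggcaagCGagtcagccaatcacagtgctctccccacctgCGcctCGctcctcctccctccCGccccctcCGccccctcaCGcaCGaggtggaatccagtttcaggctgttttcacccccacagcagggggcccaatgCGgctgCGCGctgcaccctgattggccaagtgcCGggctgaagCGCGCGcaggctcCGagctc
Prss42: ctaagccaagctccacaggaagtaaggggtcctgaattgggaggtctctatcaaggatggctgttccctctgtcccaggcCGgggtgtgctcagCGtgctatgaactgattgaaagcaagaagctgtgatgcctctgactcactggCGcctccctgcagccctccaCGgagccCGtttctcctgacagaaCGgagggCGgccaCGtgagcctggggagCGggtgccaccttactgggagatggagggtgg
These windows lie at chr14:46882715-46882964 on the plus strand for Samd4, chr2:131180068-131180317 on the minus strand for Cenpb, chr4:143394191-143394440 on the plus strand for Pramel1, chr1:166238745-166238994 on the minus strand for Mael and chr9:110797935-110798184 on the plus strand for Prss42. They hold 22, 34, 18, 18 and 9 CpGs in that order, against a median of 6 over 32851 promoter windows of the same length, of which 92.13% hold a CpG. Sparser windows also lay at regions called higher below, as at Pramel16, Gm32702 and Usp26 with 1, 4 and 5 CpGs. The window of Plagl1 holds 19 CpGs, and its region was not called. The deposited table of single CpGs has values at 22 of the 34 CpGs of Cenpb, 8 of the 18 of Mael and 7 of the 9 of Prss42, and at 0 of those of Samd4 and Pramel1, whose methylation is known here only as region averages.

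The WA lines stood apart from the others in how complete their columns were, and this has to be read beside every methylation value that follows. They lacked a value at 33.4 ± 4.47 of the 868 regions (SD, n = 16; lowest 25, median 33, highest 43), and the others at 69.4 ± 25.5 (SD, n = 69; lowest 25, median 63, highest 173). Within prefix the WA lines lacked 35.6 fewer regions (95% interval of the difference 22.8 to 48.4; permutation p = 1e-05, the smallest that 100000 resamples can give). Only 7 of the 69 other lines lacked no more than 43, of which 4 belong to B2, 2 to B3B, 1 to B3A and 0 to B1. Values of exactly 0 were rarer too: 0.659% ± 0.446 (SD, n = 16) of a WA line's kept regions were at 0, against 5.12% ± 3.80 (SD, n = 69; permutation p = 2e-05). Among single CpGs, 22.6% ± 5.67 (SD, n = 16) were at 0 in the WA lines and 40.6% ± 11.5 (SD, n = 69) in the others (permutation p = 1e-05). Read counts are not part of either table. The depth of each line is therefore unknown, and whether completeness has a part in the methylation differences was not tested directly.

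**Figure D1:**
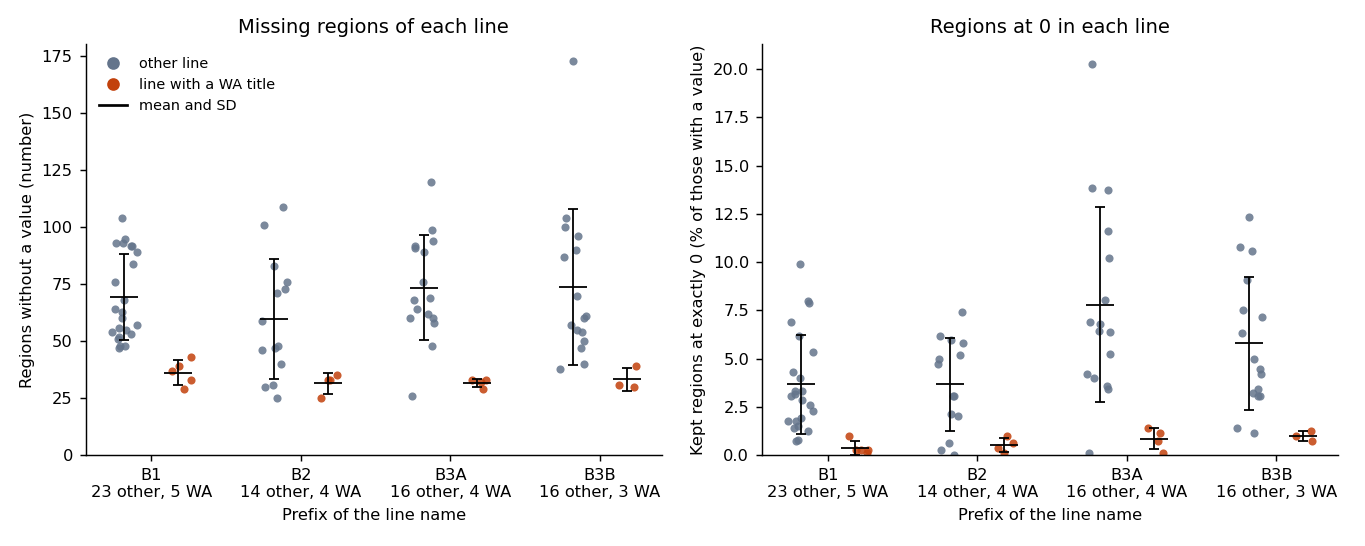
Regions without a value (left, number of 868) and the share of kept regions at exactly 0 (right, percent) for each of the 85 lines by prefix, with bars for the mean and SD. The WA lines lacked 25 to 43 regions, and 7 of the 69 other lines lacked no more than 43.

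Among the other 69 lines alone, none of the 10 relations between missing regions and methylation passed after adjustment. The number of missing regions and the mean methylation of a line had Pearson's r = -0.153 (permutation p = 0.210) and Spearman's coefficient = -0.148 (permutation p = 0.226), and r = -0.139 without the 2 lines farthest from the median number. Within B1 the correlation was stronger, at r = -0.478 (permutation p = 0.0209) and Spearman's coefficient = -0.434 (permutation p = 0.0388) for its 23 lines. Adjusted over the 10 relations computed, these p-values were 0.209 and 0.194. In B2, B3A and B3B r was 0.316, -0.295 and -0.00705 over 14, 16 and 16 lines. For the mean over regions under 5% r was -0.203 and Spearman's coefficient -0.206 over all 69 (permutation p = 0.0941 and 0.0891) and r was -0.169 without the 2 farthest lines. Spearman's coefficient there was -0.452 in B1 (permutation p = 0.0310, adjusted p = 0.194) and -0.440 in B3A (permutation p = 0.0877, adjusted p = 0.223). For the same regions r was -0.378, 0.110, -0.296 and -0.0846 for B1, B2, B3A and B3B.

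WA lines were more methylated on average than other lines of their prefix, in 3 of 4 prefixes. Mean methylation over the kept regions was 23.9% ± 12.4 (SD, n = 16; lowest 4.29%, median 25.7%, highest 43.8%) in the WA lines and 17.9% ± 9.18 (SD, n = 69; lowest 3.02%, median 16.2%, highest 42.7%) in the others. Within prefix the WA lines were higher by 6.10 points (SE 2.44, 95% interval 1.24 to 10.96; permutation p = 0.0142). Against only the 7 other lines with no more missing regions, a comparison chosen after the data were seen, the difference was 6.59 points and no longer passed (permutation p = 0.185). B1 has no other line there, so the B1 WA lines do not enter that difference.

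The levels of the 16 lines ran over nearly the whole range of the series. In B1 the lines B1_B33, B1_B5, B1_C16, B1_C17 and B1_D4 averaged 21.2%, 27.6%, 30.4%, 43.8% and 30.8%, and the other 23 lines 23.1% ± 9.06 (SD). In B2 the lines B2_11, B2_5, B2_8 and B2_9 averaged 20.2%, 25.1%, 31.5% and 38.5%, and the other 14 lines 18.4% ± 7.26 (SD). In B3B the lines B3B_26, B3B_31 and B3B_8 averaged 14.8%, 11.3% and 42.3%, and the other 16 lines 14.5% ± 9.08 (SD). B3A went the other way: B3A_21, B3A_36 and B3A_44 averaged 7.78%, 4.29% and 7.32%, B3A_7 averaged 26.3%, and the other 16 lines 13.2% ± 7.44 (SD). The groups overlapped in every prefix, although a WA line was the most methylated of all lines in B1, B2 and B3B and the second in B3A, and B3A_36 ranked 83 of 85 overall.

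**Figure D2:**
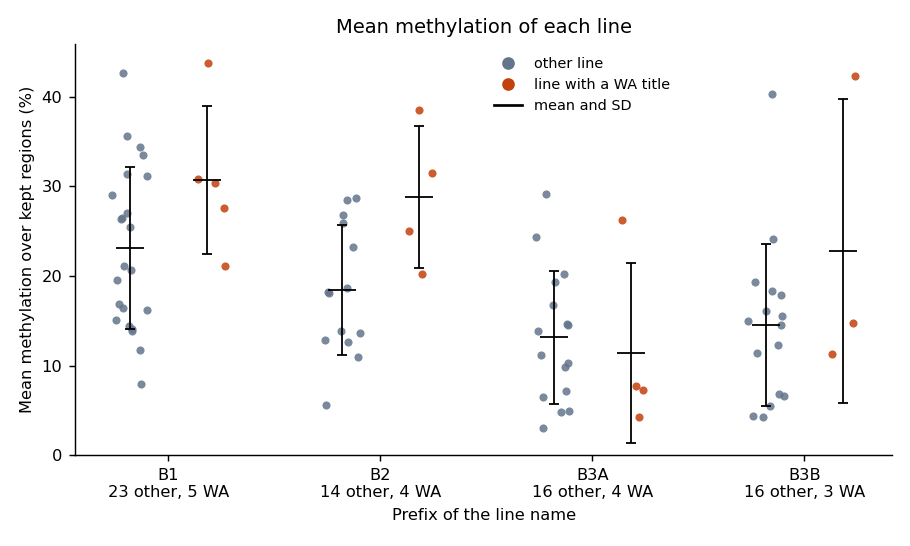
Mean methylation over the kept regions (percent) of each of the 85 lines by prefix, grey for other lines and orange for WA lines, with bars for the mean and SD. WA lines average higher in B1, B2 and B3B but overlap the other lines, while 3 of the 4 WA lines of B3A lie between 4.29% and 7.78%.

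By prefix, B2 had the widest difference at 10.4 points (exact permutation p = 0.0275). B3B followed at 8.25 points (exact permutation p = 0.216) and B1 at 7.64 points (exact permutation p = 0.0949), while the B3A difference was -1.75 points (exact permutation p = 0.699). None passed after adjustment over the 4 prefixes, where the smallest adjusted p was 0.110. That the difference varied between prefixes was not shown (F = 1.203, permutation p = 0.312). Leaving out the 31 columns whose name ends in N, of which 6 are WA lines, raised the combined difference to 10.2 points (permutation p = 0.00145). Of the WA lines this left only B3A_36 (4.29%) in B3A and only B3B_8 (42.3%) in B3B. The F for variation between prefixes was then 2.88, with B3A and B3B resting on those lines alone. Leaving out all of B1 or all of B2 gave 5.39 and 4.74 points and ended the call (permutation p = 0.0686 and 0.105), as did leaving out B3B_8 alone, at 4.55 points (permutation p = 0.0636).

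All 11 categories that the authors gave to the regions were more methylated in the WA lines, combined over prefixes, with adjusted p from 0.0234 to 0.0383 over the 11. B3A went the other way in 10 of the 11, from -0.495 points at germline_GGD to -6.83 at imprinting, and B3B in 1 (nPSC-associated, -0.266), none of which passed the exact permutation test. The exception in B3A, nPSC-associated, was higher by 0.678 points (exact permutation p = 0.00578, adjusted p = 0.0231 over the 4 prefixes). The 2-cell stage regions, 46 of them at genes transcribed when the embryonic genome is first switched on, had 32.9% ± 17.2 (SD, n = 16) against 25.3% ± 13.3 (SD, n = 69), a difference of 7.66 points. For germline_Dahlet (115 regions) the levels were 26.2% ± 13.6 and 18.95% ± 9.81, and the difference was 7.29 points. For germline_GGD (8 regions) they were 26.7% ± 12.2 and 19.3% ± 8.82, and the difference was 7.48 points. Differences in the other categories ran from 6.62 points in Cancer (139 regions) to 3.99 in aging_Young (127 regions), with 0.405 points at the 3 nPSC-associated regions. The nPSC-associated regions lay at pluripotency genes and were almost unmethylated in both groups, at 0.758% ± 0.617 (SD, n = 16) and 0.358% ± 0.531 (SD, n = 69). None of the 11 passed against the 7 other lines with no more missing regions, nor without B1_C17, without B2_9 or without B3B_8.

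**Figure D3:**
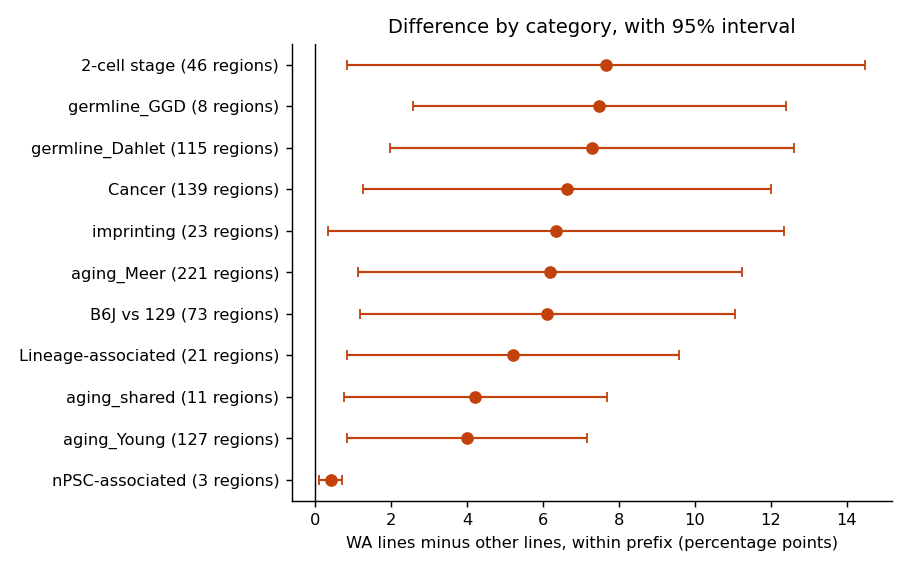
Difference between WA and other lines within prefix (percentage points) for the 11 categories, each with its 95% interval, and the number of kept regions in brackets. The points run from 0.405 for nPSC-associated to 7.66 for 2-cell stage, and no interval reaches 0.

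Measured against the other regions of the same line, categories differed in how much of the gap they carried, but this depended on the scale. In points, 6 of the 11 passed (adjusted p 0.0274 for germline_Dahlet and 0.0483 for the other 5): germline_Dahlet rose by a further 1.39 points and germline_GGD by 1.39, while Lineage-associated, aging_shared, aging_Young and nPSC-associated lagged by -0.925, -1.92, -2.51 and -5.72. On the log2 odds scale, which gives changes at low levels more weight than points do, 0 of the 7 relative levels given here passed, with adjusted p from 0.210 to 0.330. Over regions with a value in every line, the relative rise of germline_Dahlet was 0.553 points and did not pass (adjusted p = 0.179). Some calls were lost without 1 line: with each WA line left out in turn, germline_Dahlet passed in 11 of 16 fits, aging_Young, aging_shared and nPSC-associated in 9, Lineage-associated in 8 and germline_GGD in 6.

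Regions of low methylation showed the larger proportional gap. The 213 regions that averaged under 5% over all lines had 2.57% ± 1.43 (SD, n = 16) in the WA lines and 1.55% ± 0.908 (SD, n = 69) in the others, a ratio of 1.66 (difference 1.02 points, permutation p = 0.00049, adjusted p = 0.00196 over 4 bins). The ratio was 1.49 for the 231 regions from 5% to 20%, 1.33 for the 247 from 20% to 40% and 1.23 for the 96 at 40% and over. In points the order was the reverse, at 5.27, 9.54 and 10.1. Against the 7 other lines with no more missing regions the gap at regions under 5% was 1.08 points (permutation p = 0.0842). These bins were added after the data were seen.

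Region by region, limma with prefix terms called 232 of 787 regions higher in the WA lines, or 29.5% of those tested, and 0 lower (0.0%), at an adjusted p under 0.05 on the log2 odds scale. At an unadjusted p under 0.05 the counts were 449 higher and 0 lower, and 781 regions had a positive difference. The called differences had a median of 2.77 points, with 59 of the 232 under 1 point and 36 over 10. Regions under 5% gave 119 of the calls (55.9% of 213), and those at 40% and over gave 5 (5.21% of 96). The sign was positive at 312 regions within B3A, against 780 within B1, 771 within B2 and 737 within B3B. Fitted within 1 prefix at a time, limma called 1, 10, 1 and 0 regions higher in B1, B2, B3A and B3B, and 0 lower. At an unadjusted p under 0.05 the counts higher were 137, 371, 23 and 20, and those lower 0, 0, 10 and 0. The interaction of WA title with prefix was called at 0 regions (0.0%) by limma's F test, with 26 at an unadjusted p under 0.05 and a smallest adjusted p of 0.358. Without the columns ending in N, B3A_36 and B3B_8 are the only WA lines of B3A and B3B. The count of 232 rested on which lines were used: it was 93 with no prefix term, 676 without the columns ending in N, 16 without B1, 13 without B2, 625 without B3A, 104 without B3B, and 0 against the 7 lines with no more missing regions (23 higher and 1 lower at an unadjusted p under 0.05). Single lines moved it as well, to 59 without B1_C17, 120 without B2_8, 58 without B2_9, 75 without B3A_7, 56 without B3B_8 and 531 without B3A_36.

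**Figure D4:**
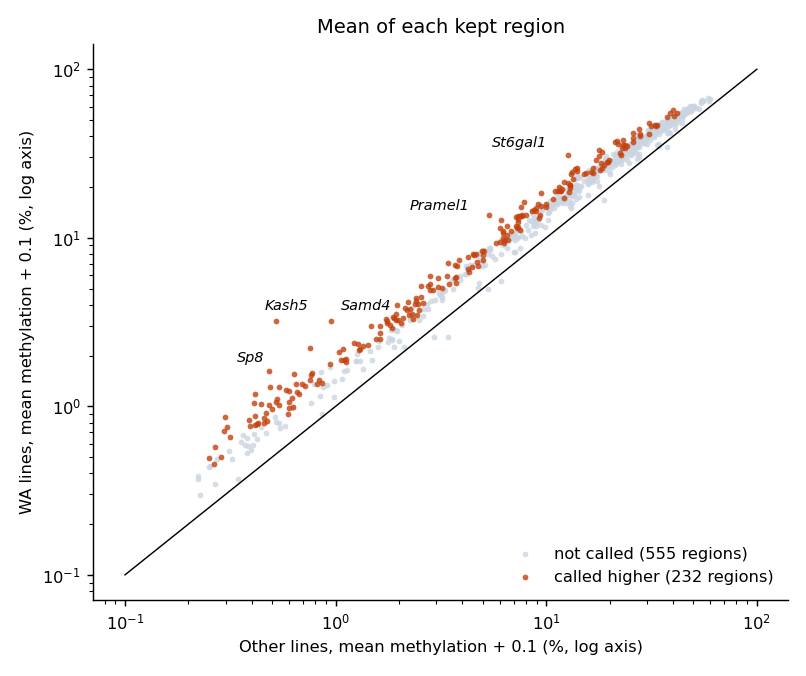
Mean methylation of each of the 787 kept regions in the other lines (x) and in the WA lines (y), both in percent plus 0.1 on log axes, with the line of equality. The 232 regions called higher are in orange, and Kash5, at 3.11% against 0.419%, stands farthest above the line.

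The clearest separation was at Kash5, which encodes a meiotic protein that couples telomeres to dynein at the nuclear envelope. The region (chr7:45204188-45204688, mm10, overlapping the gene, aging_Young) had 3.11% ± 2.17 (SD, n = 16) in the WA lines and 0.419% ± 0.384 (SD, n = 69; lowest 0, median 0.346%, highest 2.32%) in the others. In B1 the 5 WA lines had 5.44% (B1_B33), 3.68% (B1_B5), 5.55% (B1_C16), 9.05% (B1_C17) and 3.34% (B1_D4), all above the highest other B1 line at 1.57%. In B2 they had 2.19%, 2.75%, 2.55% and 3.08% for B2_11, B2_5, B2_8 and B2_9, with the highest other line at 2.32%. In B3A they had 1.74%, 0.399%, 3.37% and 2.56% for B3A_21, B3A_36, B3A_44 and B3A_7, and in B3B 0.460%, 0.791% and 2.87% for B3B_26, B3B_31 and B3B_8. Of the 16 WA lines, 11 were above every other line of the series and 16 above the other lines' median. The log2 odds difference was 1.43 (SE 0.12, limma adjusted p = 4.74e-16), and limma called it in 29 of 30 alternatives. In the alternative that did not, the one against the 7 lines with no more missing regions, the difference was 0.998 (adjusted p = 0.562, the smallest of any region in that fit). That comparison has no other B1 line, so the 5 B1 WA lines do not enter its difference, and 0.998 and 1.43 cover different sets of lines. Among single CpGs of the region 14 of 21 were higher in the WA lines, with means of 1.26% and 0.372%, and the difference on averages from the CpG table was smaller, at 0.64 (limma adjusted p = 1.82e-05). Such counts, here and below, cover CpGs read in the same lines, which are not independent, and the share over all CpGs is not given. Uncalled regions had them too, with 53 of 53 CpGs higher at Plagl1 and 43 of 58 at 1 region of Lhx9.

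Samd4, which encodes an RNA-binding repressor of translation, gave the next smallest p. Its region (chr14:46882490-46882990, aging_Young) contains the whole CpG-dense window printed above. The WA lines had 3.11% ± 1.74 (SD, n = 16; lowest 0.774%, median 2.86%, highest 8.22%) and the others 0.846% ± 0.806 (SD, n = 69; lowest 0, median 0.593%, highest 3.03%), a log2 odds difference of 1.21 (SE 0.17, limma adjusted p = 4.77e-08). Here B3A did not stand apart: B3A_21, B3A_36, B3A_44 and B3A_7 had 2.94%, 2.60%, 2.33% and 3.09%, all above the highest other B3A line at 1.57%. In B3B the 3 WA lines had 2.46%, 2.83% and 2.68%, below the highest other B3B line at 3.03%.

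At St6gal1, a sialyltransferase of the Golgi, the difference was largest in points of all regions. The region (chr16:23263049-23263548, overlapping the gene, Cancer) had 31.1% ± 16.8 (SD, n = 16) in the WA lines and 12.6% ± 8.43 (SD, n = 69; lowest 0, median 10.9%, highest 35.8%) in the others. In B2 the 4 WA lines had 34.01%, 34.7%, 46.9% and 50.6% for B2_11, B2_5, B2_8 and B2_9, above the highest other line at 22.6%. In B1 they ran from 26.3% (B1_B33) to 57.2% (B1_C17), 4 of 5 above the highest other line at 35.8%. B3A_21, B3A_36 and B3A_44 were low at 6.25%, 2.89% and 6.46%, B3A_7 had 32.5%, and B3B_26, B3B_31 and B3B_8 had 12.7%, 23.4% and 46.5%. The difference was 18.6 points within prefix (SE 2.63), or 1.64 on the log2 odds scale (SE 0.32, limma adjusted p = 0.000171).

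**Figure D5:**
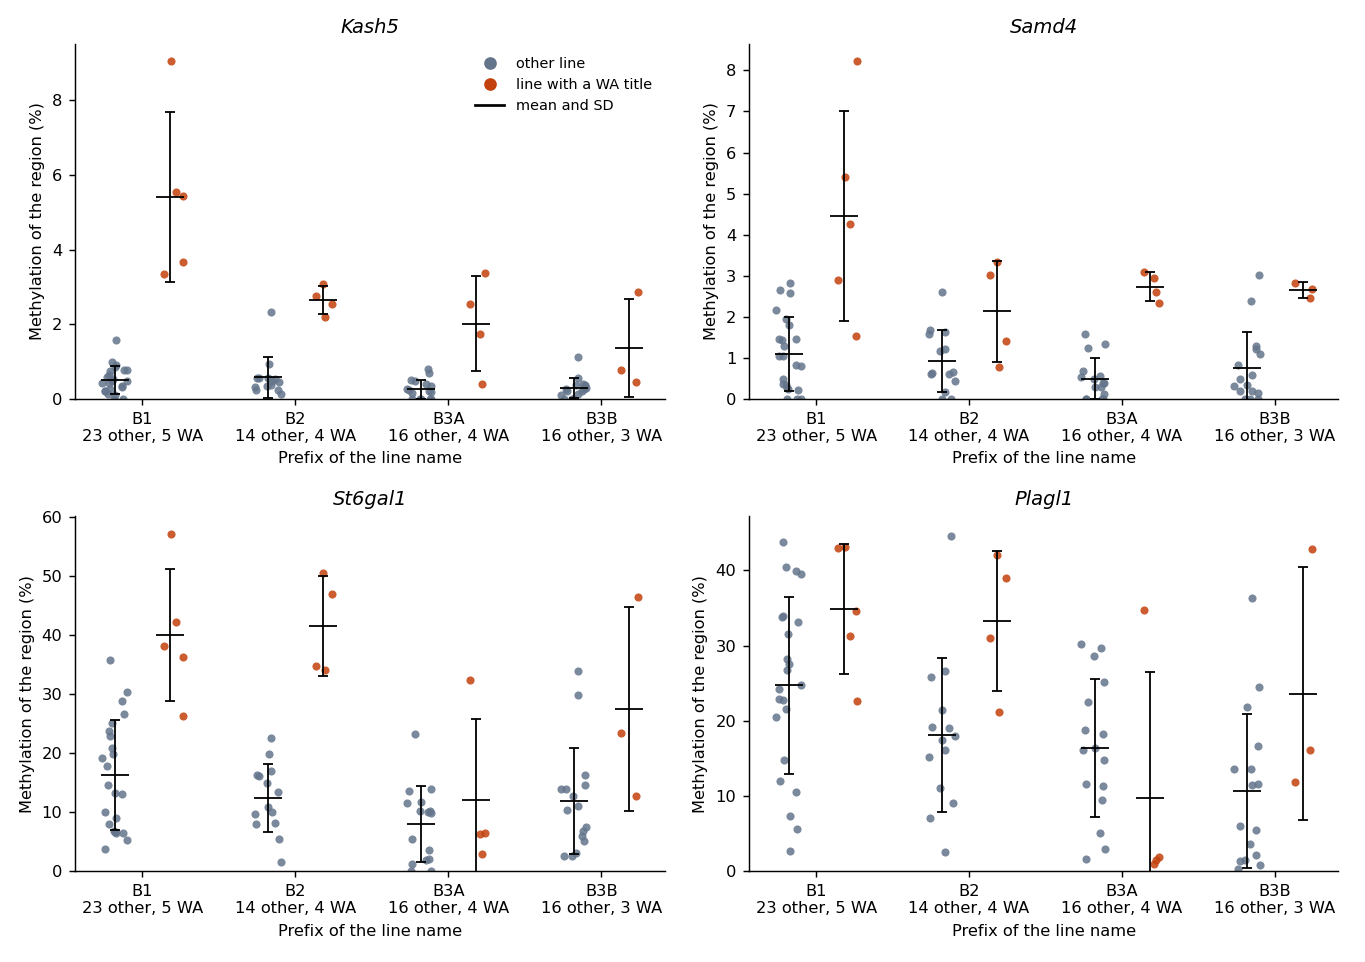
Methylation (percent) of the regions at Kash5, Samd4, St6gal1 and Plagl1 in each line by prefix, grey for other lines and orange for WA lines, with bars for the mean and SD that are cut off at 0. At Kash5 all 5 WA lines of B1 lie above the 23 other lines, and at Plagl1 3 of the 4 WA lines of B3A lie below 2%.

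The remaining regions among the 10 smallest p were small differences near 0 methylation, apart from Pramel1. Sp8, a zinc finger transcription factor of limb and brain development, had 1.53% ± 1.32 (SD, n = 16) against 0.383% ± 0.397 (SD, n = 69; limma adjusted p = 2.31e-06). Dact3, an antagonist of Wnt signalling, had 2.01% ± 1.27 against 0.934% ± 0.533, and 68 of its 74 measured CpGs were higher in the WA lines. At Tnfrsf22, a decoy receptor for TRAIL, the values were 2.12% ± 1.42 and 0.654% ± 0.941, and at Arg2, a mitochondrial arginase, 1.25% ± 0.417 and 0.591% ± 0.390. Cenpb, which binds a motif of centromeric repeats, had 0.759% ± 0.886 against 0.198% ± 0.236, with 22 of 27 measured CpGs higher. Ctif, a translation initiation factor, had 1.08% ± 0.703 against 0.315% ± 0.350. The region of Pramel1, of the PRAME-like family expressed in germ cells, had 13.5% ± 6.69 (SD, n = 16; lowest 3.31%, highest 23.2%) against 5.26% ± 4.44 (lowest 0, highest 17.97%; SD, n = 52, the other lines with a value there).

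Among the 10 largest differences in points, 9 besides St6gal1 lay at 15.3 to 16.7 points with wide spreads, and all 9 were called with limma adjusted p from 0.00585 to 0.0483. Prss42, a serine protease of the testis whose promoter is printed above, had 41.9% ± 23.9 (SD, n = 16) against 25.8% ± 18.4 (SD, n = 69), and all 13 of its measured CpGs were higher. Usp26 and Nxf2, X-linked genes expressed in the testis, had 56.9% ± 24.9 and 51.7% ± 22.6 in the WA lines, against 39.8% ± 24.8 (n = 52) and 37.2% ± 19.96 (n = 61). Magel2, an imprinted gene of the Prader-Willi region, had 43.9% ± 20.9 against 27.6% ± 17.6 (n = 67). Calml3, a calmodulin-like protein of epithelia, had 54.6% ± 25.4 against 38.5% ± 20.6. The others were Wdfy4, Gm32702, Pramel16 and Zfp64, at 16.7, 15.7, 15.7 and 15.3 points. Of the 9, Gm32702 alone stayed called when each WA line was left out in turn.

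With the mean log2 odds of each line as a covariate, which asks whether a region differs beyond the general level of its line, limma called 29 regions higher (3.68%) and 16 lower (2.03%). All 29 were also among the 232, and all 10 regions of the smallest p stayed called. At Kash5 the difference was then 1.32 (SE 0.12, adjusted p = 8.15e-16) and at Samd4 1.203 (SE 0.17, adjusted p = 1.1e-07). The 29 were mostly near 0, with a median level of 0.619% over all lines, and St6gal1, Pramel1 and Mael were the members above 10% in the WA lines besides Mamstr at 11.6%. The 16 lower ones had a median level of 33.05%. They were not lower in the WA lines outright: 15 of 16 had a positive difference in points without the covariate, and all 16 were below the other lines in B3A. Among them, named after their values were seen, were Wnk4, a kinase of renal salt handling, and Sohlh1, a germ cell transcription factor (log2 odds -0.70 and -0.61 with the covariate, both with limma adjusted p = 0.000426). Without a given prefix or the N columns the total of 45 fell to between 17 and 29, except for 64 without B3B. It was 81 with no filter beyond 2 lines per group, 20 on averages from the CpG table, and 0 against the 7 lines with no more missing regions. Single lines moved it to 18 without B1_B33, 81 without B1_D4, 29 without B2_5, 28 without B2_9, 24 without B3A_44 and 83 without B3B_26.

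Germline genes, of which the chosen list had 33 kept regions, were called higher at 18 (54.5%) and lower at 0, against 29.5% of all regions. Their median difference was 7.20 points, against 6.06 over all 787. Mael, a piRNA pathway protein that silences transposons, led by p with 19.9% ± 9.72 (SD, n = 16) against 11.4% ± 6.002 (SD, n = 69; log2 odds 0.90, SE 0.22, limma adjusted p = 0.00389), and all 28 of its measured CpGs were higher. Other called members were Tex11, a meiotic crossover gene on the X chromosome (13.5% ± 7.06 against 7.58% ± 4.64, n = 68), the cohesin Smc1b (5.07% ± 4.22 against 2.44% ± 2.31), and the synaptonemal complex genes Sycp3 (27.04% ± 13.2 against 18.7% ± 8.43) and Sycp1 (30.9% ± 13.1 against 22.6% ± 10.2). Dazl and Ddx4, an RNA-binding protein and a helicase of germ cells, had 34.7% ± 17.4 against 24.1% ± 12.3 and 13.1% ± 5.77 against 9.13% ± 3.95, and both were called. Piwil2, Mov10l1 and Asz1 of the piRNA pathway were not, at differences of 6.28, 8.63 and 7.03 points. With the covariate 1 of the 33 was called higher (Mael) and 2 lower (Asz1 and Tuba3b), against 3.68% and 2.03% of all regions.

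Imprinted regions were low in 3 of the 4 WA lines of B3A and higher on average than in the other lines in B1, B2 and B3B. Over the 23 regions of the imprinting category the WA lines had 28.4% ± 15.9 (SD, n = 16) and the others 21.9% ± 11.2 (SD, n = 69), a difference of 6.33 points (95% interval 0.329 to 12.3; permutation p = 0.0383). The call was lost without any 1 of B1_B5, B1_C17, B1_D4, B2_8, B2_9, B3A_7 or B3B_8, at 4.24 to 6.18 points. Relative to the rest of the line the difference was 0.237 points (permutation p = 0.865). In B3A the lines B3A_21, B3A_36 and B3A_44 averaged 5.40%, 2.28% and 3.36% over the 23 regions, and B3A_7 39.3%, with the other 16 lines at 19.4% ± 9.20 (SD). In B1, B2 and B3B the WA lines ran from 28.995% to 45.3%, 24.8% to 45.5% and 12.1% to 50.2%, and the other lines averaged 28.4%, 22.6% and 14.3%. Within prefix the differences were 8.91, 11.7, -6.83 and 12.3 points for B1, B2, B3A and B3B (exact permutation p = 0.0750, 0.0493, 0.287 and 0.110), none of which passed after adjustment over the 4. The test that they vary between prefixes did not pass (F = 2.25, permutation p = 0.0915, adjusted p = 0.398 over 11 categories).

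Of the chosen imprinted genes, 1 of 27 regions was called (Magel2), with a median difference of 6.94 points. On the log2 odds scale only 1 of the 23 imprinting regions was called (4.35%, against 29.5% of all), although all 23 had a positive difference. That region lay 6264 bases from 4930524O08Rik on chromosome 9, with 22.2% ± 15.2 (SD, n = 16) against 13.2% ± 10.2 (SD, n = 56; limma adjusted p = 0.0455), and it stayed called in 7 of the 16 fits that left out a WA line. The other imprinting region nearest to that gene, 15323 bases from it, was not called. It had 27.9% ± 18.3 (SD, n = 16) against 24.6% ± 13.3 (SD, n = 65; limma adjusted p = 0.921). At Plagl1, an imprinted zinc finger gene, B3A_21, B3A_36 and B3A_44 had 0.952%, 1.54% and 1.93%, B3A_7 had 34.8%, and the other 16 B3A lines 16.4% ± 9.17 (SD). Over all prefixes Plagl1 had 26.1% ± 15.6 against 18.2% ± 11.6 (limma adjusted p = 0.197). Kcnq1ot1, the noncoding RNA that silences its imprinted neighbours, differed by 9.05, 13.6, -13.2 and 10.4 points in B1, B2, B3A and B3B, and Gnas, which encodes a G protein subunit, by 9.38, 12.9, -8.72 and 15.5. Grb10, a growth inhibitor, had the widest gap of the category at 30.5% ± 17.7 against 19.11% ± 11.8 (limma adjusted p = 0.0598), with 6 of 16 WA lines above every other line. The calls in this category depended on the scale. On fractions with no transformation, where limma called 329 of the 787 regions, Grb10, Peg10, Plagl1 and Nnat passed as well (limma adjusted p = 0.0127, 0.0360, 0.0419 and 0.0488). The 4 regions after Kash5 by interaction p were Kcnq1ot1, Plagl1, Gnas and Gm34081 of the imprinting category, and each had an adjusted p of 0.884.

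The other chosen lists had few regions. Among pluripotency genes Zfp42, a marker of naive cells, had 1.34% ± 1.26 (SD, n = 16) against 0.655% ± 1.46 (SD, n = 64; limma adjusted p = 0.0483), a call that held in 6 of the 16 fits without a WA line. The Zfp42 difference was -1.53 points in B3B. It did not pass on fractions with no transformation or with the covariate (limma adjusted p = 0.111 and 0.153). Nanog and Tbx3, transcription factors of the pluripotency network, were at 0.586% and 0.345% in the WA lines and did not pass. The 6 regions at 2-cell stage genes, among them Duxf3 (45.1% against 34.4%), a driver of that programme, gave 0 calls, against 29.5% of all regions, with a median difference of 11.2 points. The 46 regions of the 2-cell stage category gave 12 (26.1%). Of the methylation machinery, Tet3, an oxidase of 5-methylcytosine, had 64.6% ± 23.2 against 54.3% ± 19.6 and Dnmt3l, a partner of the de novo enzymes, 36.1% ± 21.3 against 27.1% ± 15.7 (limma adjusted p = 0.0668 and 0.0878). Of 9 regions at lineage genes 2 were called higher (22.2%, against 29.5% of all regions): Gata4 and Sox17, both regulators of endoderm, at 18.6% against 12.8% and 6.72% against 4.64% (limma adjusted p = 0.0403 and 0.0415). The regions at Foxa2 (limma adjusted p = 0.0710, 0.130 and 0.0663), Pax6, Nkx2-1 and Lhx9 were not called.

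Regions on the X chromosome carried a larger gap in points than autosomal ones, combined over prefixes, while the ratios of the group means were close, at 1.37 and 1.34. The 15 kept X regions averaged 37.03% ± 18.6 (SD, n = 16) in the WA lines and 27.01% ± 13.97 (SD, n = 69) in the others, and the 772 autosomal regions 23.7% ± 12.3 and 17.7% ± 9.09. The X mean less the autosomal mean was 13.4 ± 6.49 points and 9.31 ± 5.39 points, higher in the WA lines by 4.06 within prefix (95% interval 1.09 to 7.02; permutation p = 0.00747). Taken separately, B1, B2, B3A and B3B gave 5.05, 5.35, -0.455 and 6.57 points (exact permutation p = 0.0694, 0.0327, 0.878 and 0.119), with a smallest adjusted p of 0.131 over the 4. On the log2 odds scale the combined difference was 0.26 (permutation p = 0.0282). Over regions with a value in every line, where Taf7l was the only X region left, it was 4.15 points but did not pass (permutation p = 0.0963). The X regions had a value in 52 (Usp26) to 69 (Taf7l) of the other lines, so the X means of those lines do not all cover the same regions. Of the 15 regions 14 are at germline genes by the authors' categories, and 6 were called higher (against 29.3% of autosomal regions and 29.5% of all): Tex11, Cypt3, Otud6a, Nxf2, Ct55 and Usp26.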

How the data were processed

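The authors deposited methylation as a fraction per region and a fraction per CpG, with a coverage of 10 in the tables' own names. The genome build was mm10, and reads were handled with Bowtie2, Bismark and Trim Galore 0.6.4, per the submitters' processing notes. No read counts are given, so depth is unknown and no counting interval could be made. All 85 columns were used (0 of per-sample values unused). WA status came from the second titles in the labels. Two-sided tests permuted WA labels within prefix (100000 resamples, exact within each prefix). Each region's deposited fraction f was turned into log2 odds, log2((f + 0.01)/(1 - f + 0.01)), and fitted by limma (version 3.58.1, under R 4.3.3) with prefix terms and Benjamini-Hochberg adjustment at 0.05. Other steps used Python 3.11.15, pandas 2.3.3, NumPy 2.4.6, SciPy 1.17.1 and matplotlib 3.10.9. The statistics were also run on simulated data, in which regions varied independently of each other. Those runs cannot show how the limma calls fare where regions share the level of their line.

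The comparison of lines by WA title and the gene lists were chosen with earlier results of these data known, although each line was placed by its name. Regions named were the 10 of smallest p, the 10 of largest difference, 5 each by covariate and interaction p, the smallest p per category and the 3 largest of each list. Each was named by the gene it overlaps, else the nearest. Alternatives changed the prefix term, region filter, scale, offset, lines and table. Exons were not used here.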

Additional observations from a re-analysis of the deposited data

Results flagged for a closer look

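Of 51 groups of 4 or 5 WA lines tested, 10 held a line that stood far from the others of its group, where chance flags about 1 in 20 groups; the 3 WA lines of B3B were too few to test. Of the 10, 8 are the same line, B3A_7, and the measures overlap, so they are not independent.

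B3A_7 was far above the other 3 WA lines of B3A in mean methylation (26.26%, next 7.775%) and in the categories 2-cell stage (38.03%, next 9.71%), B6J vs 129 (26.32%, next 7.698%), Lineage-associated (21.62%, next 6.293%), germline_Dahlet (29.52%, next 8.396%) and germline_GGD (33.61%, next 11.36%). The gap was widest at imprinting (39.28%, next 5.397%). Its X mean exceeded its autosomal mean by 17.18 points, against 4.662 in the next line. In B1, B1_C17 stood above the other 4 WA lines at germline_GGD (46.75%, next 31.29%), and B1_D4 had 1.018% of its kept regions at 0, against 0.2545% in the next line.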

How the results depend on the processing

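The tables hold no read counts, so what depth limits could not be measured, and whether completeness has a part in the differences was not tested directly. The comparison with the 7 other lines of like completeness has no other line in B1, so the B1 WA lines do not enter its differences. The cause of each change below was not tested. Mean methylation was higher in every alternative (4.55 to 7.02 points without single WA lines). The difference did not pass without B1 (5.39), without B2 (4.74), without B3B_8 (4.55) or against the 7 lines (6.59). The imprinting difference did not pass with no prefix term (6.48), without B1, B2 or B3B (5.14, 4.64, 4.90), on log2 odds (0.43), relative to other regions (0.237) or against the 7 lines (7.48), and was 4.24 to 7.76 without single WA lines. The X difference did not pass over regions with a value in every line (4.15, with Taf7l the only X region) or against the 7 lines (3.05). Missing regions differed by -0.55 against those 7. The F for variation between prefixes was 2.88 without final N columns, where only B3A_36 and B3B_8 remained as WA lines of B3A and B3B. Categories called were 0, 0 and 1 without B1, B2 and B3B, 0 against the 7 lines, 6 as relative levels and 0 to 11 without single lines. Regions called higher (232) were 93 with no prefix term, 676 without final N columns, 16, 13, 625 and 104 without B1, B2, B3A and B3B, 0 against the 7 lines and 56 to 531 without single lines; none was called lower in any of these. With the covariate (45) they were 81 with the 2-line filter, 29 without final N columns, 22, 22 and 17 without B1, B2 and B3A, 20 from the CpG table, 0 against the 7 lines and 18 to 83 without single lines. The relative imprinting level turned to -0.214 with the 2-line filter, -0.258, -0.0988 and -0.705 without B1, B2 and B3B and -0.19 on log2 odds, and ran from -0.317 to 0.900 without single lines. Log2 odds turned negative at Gm34081 (-0.074, -0.15 and -0.12 without B1, B2 and B3B, and from -0.080 to 0.24 without single lines), Kcnq1ot1 (-0.12, -0.16 and -0.091, -0.062 against the 7 lines, and from -0.047 to 0.39 without single lines), Nkx2-1 (-0.072 without final N columns) and Lhx9 (-0.33 against the 7 lines). CpGs without a value could not stand in for regions, since the CpG table has 0 missing values, and it gave no X value. No paired analysis was possible because the columns carry no replicate numbers shared between the groups.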

Other observations

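In the deposited region table the 16 WA columns stand together as columns 70 to 85, after all 69 others. A final N, which no label explains, ends the name of 6 WA columns and 25 others.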
